A study of Mus musculus with 8 samples.

Results

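CP3 is 1 of 6 clusters of chondrocyte progenitors (CPs) that the deposited annotation names in the petrous temporal bone (PTB), the bone that encloses the inner ear and the paraflocculus. Its members were all nuclei carrying the label CP3 in that annotation, found in the raw count matrices by library and barcode: 1533 of 31076 annotated nuclei, and of 12483 CPs. The annotation itself was made from the same transcriptomes, so every comparison of CP3 with another cell type below is a description without a test. Tests were made only between genotypes, over libraries.

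The study asked how losing 1 copy of Tbx1, a T-box transcription factor gene in the region deleted in 22q11.2 deletion syndrome, affects the bone around the cerebellar paraflocculus. Single-nucleus RNA was sequenced from the PTB of Tbx1+/- mice, which carry the loss in the germline and so in every cell, and of their wild-type (WT) littermates, all at postnatal day 5.5. There were 4 PTB libraries, 2 per genotype, taken as batch 1 and batch 2 with 1 library of each genotype in each batch. Each library was a pool of 5 mice, which makes the library and not the mouse or the nucleus the replicate. The mice had been backcrossed to C57BL/6J. In the order WT batch 1, Tbx1+/- batch 1, WT batch 2 and Tbx1+/- batch 2, which all lists of 4 values below follow, CP3 held 567, 298, 373 and 295 nuclei with 2290202, 1340004, 1735665 and 1443461 unique molecular identifiers (UMIs, counted RNA molecules). The median nucleus of CP3 held 3547 to 4326 UMIs per library. Libraries shared 45 to 82 barcodes by pair over all barcodes, and 0 CP3 barcodes were shared by any pair. The median share of mitochondrial UMIs in CP3 nuclei was 1.33%, 1.11%, 0.700% and 0.820%, higher in batch 1 than in batch 2. Levels are counts per 1000000 UMIs (CPM) of the summed nuclei of a type. "All other annotated nuclei" means the 14 other types summed. In these, Tbx1 stood at 40.6, 27.1, 40.8 and 36.9 CPM, lower in the Tbx1+/- library of each batch. Osteoclasts, bone-resorbing cells of blood origin that should lack skeletal transcripts, were read as a guide to the level of free RNA. The deposited counts are not corrected for free RNA. Osteoclast nuclei held more UMIs than CP3 nuclei, so the free-RNA level in CP3 may differ from theirs.

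Chondrocytes build cartilage from type II, IX and XI collagen under the transcription factors SOX9, SOX5 and SOX6, and in the skull base much of that cartilage is later replaced by bone through RUNX2 and SP7. The cartilage of the otic capsule arises from periotic mesenchyme, which expresses Tbx18 and Pou3f4. Mesenchyme that does not turn into cartilage forms the fibrocytes of the inner ear, which secrete cochlin and are joined by connexin channels that recycle potassium.

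The label was first checked against its 2 markers. Sox9, the master regulator of the chondrocyte fate, stood at 41.9, 32.8, 24.2 and 33.9 CPM in CP3, a mean of 33.2 ± 7.25 (SD, n = 4 libraries). All other annotated nuclei were at 33.0 ± 4.79 CPM and CP5 at 101 ± 9.45 CPM, so CP3 did not stand above the rest for this marker. Osteoclasts held 15.2 ± 6.12 CPM of Sox9. CP3 came after mature chondrocytes, CP5, CP2 and CP4 in the order of Sox9, with all 4 CP3 libraries below all 4 CP4 libraries. Its range of 24.2 to 41.9 CPM overlapped that of CT1, a connective tissue type and the next one down. Col2a1, which encodes type II collagen, stood at 1316, 1169, 850 and 993 CPM in CP3 against 859 ± 165 CPM in all other annotated nuclei and 359 ± 120 CPM in osteoclasts. CP3 was 4th of 15 types for Col2a1, below mature chondrocytes (3664 ± 1270 CPM), and its range overlapped those of CP4, above it, and of osteoblasts, CP2, mature osteoblasts and CP6, which followed.

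Since nuclei of different types were sequenced to different depths, each nucleus was also thinned to 1000 UMIs, which all 1533 CP3 nuclei reached. A Sox9 UMI was then found in 3.68% ± 1.54 of CP3 nuclei, in 5.71% ± 1.82 of CP4 nuclei and in 1.67% ± 0.605 of osteoclasts (mean and SD over 4 libraries). Col2a1 was found in 60.4% ± 7.26 of CP3 nuclei, 67.7% ± 9.25 of CP4 nuclei and 27.8% ± 7.62 of osteoclasts. Before thinning the CP3 shares were 12.6% for Sox9 and 91.9% for Col2a1, and the median depth was 3547 to 4326 UMIs in CP3, 3761.5 to 5349 in CP4 and 4963 to 7105 in osteoclasts. Col2a1 was thus above the osteoclast level in every CP3 library. For Sox9 the ranges met at this depth, at 2.14% to 5.47% in CP3 and 1.12% to 2.20% in osteoclasts. After thinning to 2000 UMIs they did not, at 5.48% to 8.61% and 1.14% to 4.71%, nor did the CPM values, at 24.2 to 41.9 and 10.5 to 23.9. Both markers thus lay above osteoclasts in CPM, Col2a1 but not Sox9 lay above the pooled rest, and for both the next type down overlapped CP3. CP3 is called by its deposited label below.

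Chondrocyte markers were mixed in CP3. Of the 20 chondrocyte markers, 7 lay above all other annotated nuclei in each of the 4 libraries and 7 lay below in each. Over the 7897 genes at 20 CPM or more in CP3, these shares were 27.8% above and 32.6% below. The counts of the list were near these shares, although only 15 of its 20 members reached that level. The set above held the fibril collagens with their partners Col2a1, Col9a1, Col9a2, Col9a3 and Col11a2, beside Sox5 and Ucma. Col9a3, a chain of type IX collagen, stood at 757, 778, 544 and 563 CPM in CP3 against 171 ± 40.7 CPM elsewhere. Sox5, a partner of SOX9 on cartilage enhancers, stood at 755, 869, 895 and 844 CPM against 338 ± 24.3 CPM, the second highest of 15 types. The set below held Sox6, Acan, Hapln1, Matn3, Col11a1, Snorc and Fgfr3. Sox6, which acts together with Sox5, stood at 184 ± 13.6 CPM in CP3 against 693 ± 54.3 CPM elsewhere, and the level in osteoclasts was 182 ± 17.0 CPM. Acan, the main proteoglycan of cartilage, was at 49.5 ± 14.2 CPM against 108 ± 17.7 CPM. Summed over the list, CP3 held 5575 to 7446 CPM, other nuclei 6813 to 7434 CPM and osteoclasts 1779 to 2672 CPM, which placed CP3 8th of 15 types. All 20 markers were detected.

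Osteoblast and hypertrophic cartilage genes were low in CP3. All 15 osteoblast markers were below all other annotated nuclei in each of the 4 libraries, as were all 7 markers of hypertrophic cartilage. For the sum of the latter CP3 was the lowest of 15 types, but others were close. Its mean was 704 CPM, with CT2 at 757 and CP5 at 817 CPM. The CP3 libraries ranged from 514 to 836 CPM and overlapped osteoclasts, at 704 to 1092 CPM. The other nuclei include the osteoblast types, which raise the pooled level. For the summed osteoblast list CP3 was 13th of 15 types, at a mean of 10187 CPM. CP5 was at 8892, CT2 at 10321, CP6 at 10899 and osteoclasts at 8248 CPM, so the low level was not particular to CP3. Runx2, the master regulator of bone formation, stood at 689, 910, 628 and 642 CPM in CP3 against 4139 ± 232 CPM in other nuclei, and osteoclasts were at 1087 CPM. Sp7, which acts downstream of Runx2, was at 37.3 ± 7.73 CPM against 173 ± 17.1 CPM, and Alpl, the alkaline phosphatase of mineralizing cells, at 82.4 ± 15.4 CPM against 326 ± 12.5 CPM. For Sp7 and Alpl CP3 was the lowest of the 15 types, and no library of CP3 reached the level of other nuclei. Mef2c, a driver of chondrocyte hypertrophy, was at 293 ± 69.4 CPM against 1560 ± 129 CPM, again the lowest of 15 types.

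Genes of inner ear mesenchyme and fibrocytes were high in CP3. Of its 10 members, 8 were above all other annotated nuclei in each of the 4 libraries, and the summed level was 3334 to 4387 CPM in CP3, 921 to 1101 CPM in other nuclei and 268 to 422 CPM in osteoclasts. Only CP5 had a higher sum. Tbx18, the T-box gene of periotic mesenchyme, stood at 748, 709, 767 and 772 CPM in CP3 against 165 ± 8.48 CPM elsewhere, and CP3 was the highest of 15 types. Coch, which encodes cochlin, stood at 343, 243, 243 and 294 CPM against 26.4 ± 7.29 CPM, and the next type, CP4, reached 70.5 CPM. Gjb2, which encodes connexin 26, stood at 156, 91.0, 70.3 and 94.2 CPM against 26.1 ± 7.63 CPM, also the highest of 15 types in each library. These 3 genes were separated from other nuclei in each library with no overlap.

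CP3 was second of 15 types for Car3, Otor, Pou3f4, Gjb6 and Otos. Car3, a carbonic anhydrase, was at 1869 ± 413 CPM against 460 ± 49.6 CPM, Otor, a secreted protein of the cochlea, at 760 ± 220 CPM against 227 ± 76.4 CPM, and Pou3f4, a POU factor whose human counterpart is a deafness gene, at 106 ± 20.2 CPM against 52.9 ± 6.72 CPM. Gjb6, which encodes connexin 30, stood at 78.4 ± 6.51 CPM against 15.8 ± 0.697 CPM. The 2 remaining members were low. Emilin2 stood at 5.07 ± 1.73 CPM and Slc4a11 at 0.834 ± 0.646 CPM, with no UMI in the WT batch 1 library. Of the genes of the otic epithelium, which lines the inner ear, 2 of 10 were above other nuclei in each library, with a sum of 154 to 212 CPM against 123 to 160 CPM.

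**Figure D1:**
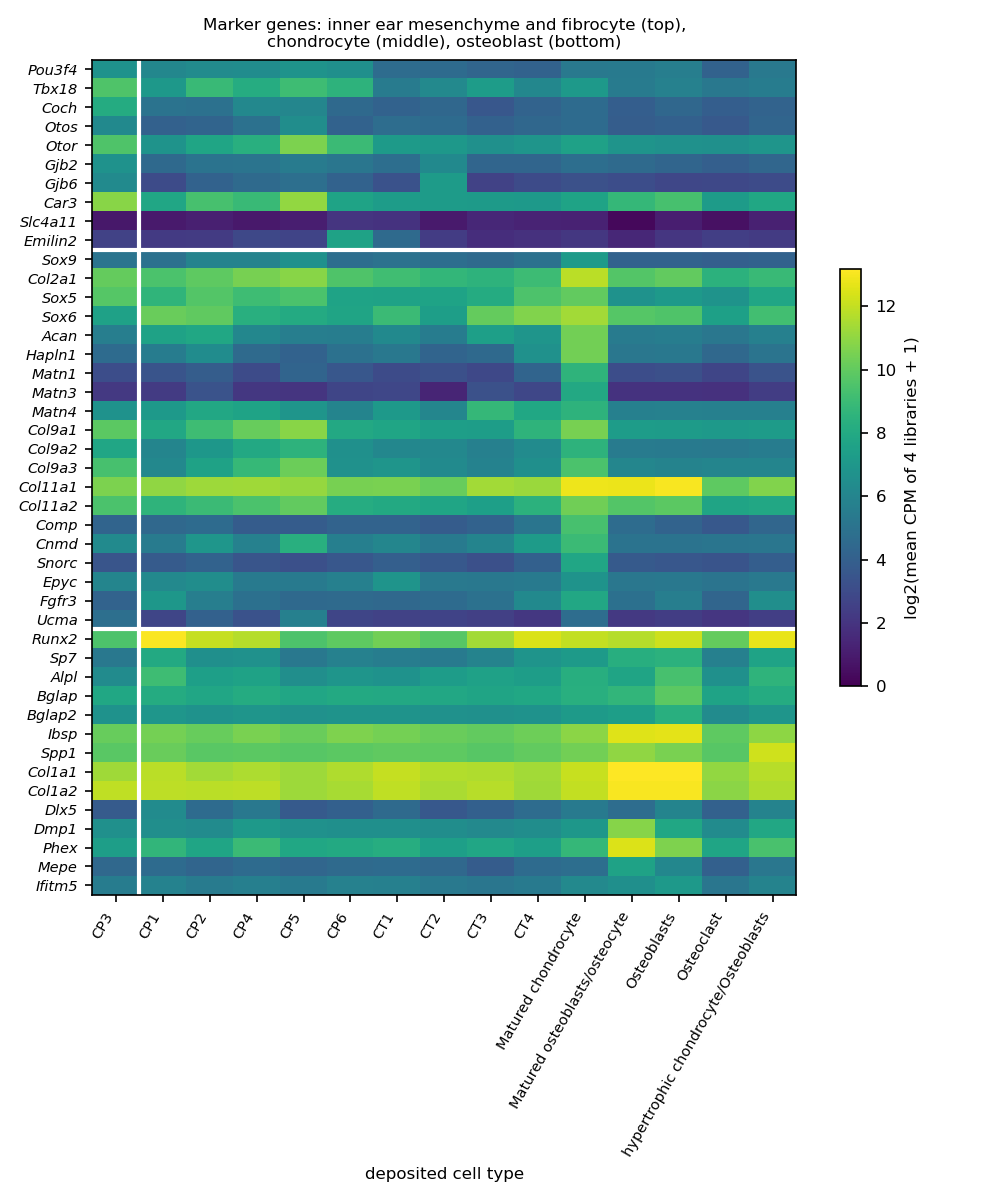
Mean level of the inner ear mesenchyme and fibrocyte markers (top), chondrocyte markers (middle) and osteoblast markers reported here (bottom) in the 15 deposited cell types, as log2(mean CPM of 4 libraries + 1), with CP3 in the first column. Tbx18, Coch and Gjb2 were highest in CP3, whereas Sp7 and Alpl were lowest there.

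The leading genes of CP3 were not on any of these lists, except Coch. Lama1, at chromosome 17, 67697259 to 67822647 on the plus strand (GRCm38, mm10), encodes a laminin chain of embryonic basement membranes and led the ranking by the smallest of the 4 library differences. It stood at 468, 537, 684 and 619 CPM in CP3 against 26.7 ± 3.12 CPM in all other annotated nuclei, and the next type, CP2, reached 82.1 CPM. Nebl (chromosome 2, 17343909 to 17731464, minus strand), an actin-binding protein of the nebulin family, stood at 3451, 3627, 4331 and 4026 CPM against 259 ± 28.7 CPM. Cacna1e (chromosome 1, 154390731 to 154884501, minus strand), the pore subunit of an R-type calcium channel, stood at 1388, 1587, 1310 and 1377 CPM against 68.7 ± 2.27 CPM. No library of CP3 came near the pooled level of other nuclei for any of the 3 genes. The next types stood above that pooled level, with CP2 at 831 ± 96.0 CPM of Nebl and CP5 at 466 ± 81.6 CPM of Cacna1e.

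Ryr3, an intracellular calcium release channel, was at 582 ± 137 CPM against 38.8 ± 8.03 CPM, and CT3 held 389 CPM of it. The adhesion protein Cntn6 was at 375 ± 31.4 CPM against 31.0 ± 2.32 CPM in the pooled rest, the guanine exchange factor Rapgef5 at 750 ± 95.8 CPM against 64.4 ± 11.9 CPM, the surface peptidase Dpp4 at 283 ± 26.7 CPM against 27.0 ± 3.43 CPM, and the vesicle priming factor Unc13c at 521 ± 103 CPM against 45.7 ± 6.93 CPM. Single types came closer than the pooled rest, with 250 CPM of Cntn6 in CP5, 416 CPM of Rapgef5 in CT4, 116 CPM of Dpp4 in CT2 and 224 CPM of Unc13c in CP6. Themis, best known from T cell selection, was at 86.5, 50.7, 122 and 61.0 CPM against 3.60 ± 0.947 CPM. Others among the 20 leading genes were Sphkap, Synpr, Fam83b, Rasgef1b, L3mbtl4, Coch and the unnamed gene models Gm16226, Gm49171, Gm33906 and Gm49575.

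In all, 183 of the 7897 genes at 20 CPM or more in CP3 (2.32%) were higher there than in every other type in each of the 4 libraries. By their smallest margin over the next type, the first 10 were Lama1, Nebl, Gm16226, Themis, Coch, Rasgef1b, Fam83b, Gata2, Sphkap and Csmd2. Gata2, a zinc finger transcription factor, stood at 99.6, 100, 92.2 and 69.3 CPM in CP3 against 8.32 ± 0.817 CPM in other nuclei and 20.2 CPM in CP2, the next type. Lama1 was found in 33.3% ± 4.48 of CP3 nuclei after thinning to 1000 UMIs and Nebl in 86.4% ± 2.62, against 0.826% ± 0.629 and 5.59% ± 0.644 of osteoclasts.

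**Figure D2:**
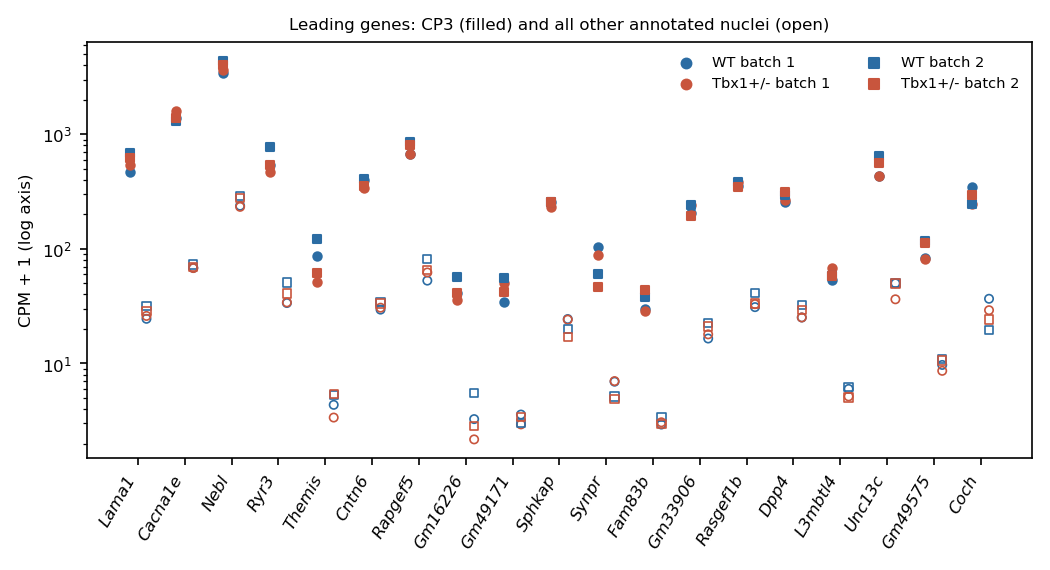
Leading genes of CP3, with CPM + 1 on a log axis in CP3 (filled) and in all other annotated nuclei (open) for each of the 4 libraries. All 4 CP3 libraries lay above all 4 values of the other nuclei for each of these genes, whose ranking used this difference.

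The 10 genes with the largest deficit in CP3 were each highest in osteoblasts, mature osteoblasts or osteoclasts. They included Gm10629, Gm42836, A930002C04Rik, 9130024F11Rik, Nyap2, Ptk2b, Gm32036, Adgrd1 and Fam78b. Gm10629 stood at 3.88 ± 2.39 CPM in CP3 and 73.0 ± 8.01 CPM in other nuclei, with osteoblasts highest at 234 CPM. Nyap2 and Ptk2b, by contrast, were highest in osteoclasts at 1553 and 268 CPM. For Nyap2 CP3 was 4th of 15 types, at 11.3 ± 1.78 CPM, so its deficit against the pooled rest came from osteoclasts.

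The type most like CP3 was CP4, with a mean Spearman correlation of 0.938 over 12776 genes and 4 libraries, followed by CP2 at 0.926 and CP5 at 0.924; genes within a library share its depth and free RNA, so these values only order the types. Against CP4, genes higher in CP3 by the largest margins included Gm49164, Ranbp3l, Lama1, Synpr, Rapgef5, Sphkap, Unc13c, Nebl and Dpp4. Ranbp3l, an exporter of BMP-responsive SMAD proteins from the nucleus, stood at 692 ± 58.4 CPM in CP3 against 61.1 ± 14.1 CPM in CP4. Among the 10 genes lower in CP3 were the glutamate receptor genes Gria1, Grik4 (8.23 ± 2.59 against 74.5 ± 15.8 CPM), Grin2a (31.9 ± 5.54 against 283 ± 36.0 CPM) and Grm7 (33.9 ± 10.7 against 379 ± 38.3 CPM). The others were 9630002D21Rik, 1700018A04Rik, Caln1, Lingo2, Pde9a and 5430419D17Rik.

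Against CP2, genes higher in CP3 by the largest margins included Gm49171, Slc7a11, Gm49164, Cacna1e, Gm45904, Gm33906, Ranbp3l, Gm30613 and Cntnap4. Slc7a11, the cystine-glutamate exchanger, stood at 266 ± 83.3 CPM against 11.7 ± 1.26 CPM in CP2. Lower in CP3 were Ifitm10, Gm6260, Kcnq5, Gm16351, Hhip, Caln1, Kctd8, Sema3d, Slc26a7 and Zim1. Hhip, an inhibitor that hedgehog signalling itself induces, was at 80.3 ± 6.68 CPM against 598 ± 66.8 CPM, and Sema3d, a secreted guidance cue, at 523 ± 91.6 CPM against 3707 ± 218 CPM.

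Among the signalling pathways, hedgehog and BMP genes were low in CP3, a level shared with some other types. The mean hedgehog sum was 1190 CPM in CP3 (14th of 15 types), 1253 in mature osteoblasts, 1275 in CP6 and 2310 CPM in CP2, the highest type. For BMP the sums were 1715 CPM in CP3 (13th), 1514 in CT4, 1798 in CT3, 1888 in CP6 and 3166 CPM in CP2, again the highest. The shares to read the counts below against are 27.8% above and 32.6% below other nuclei in each library. They cover the 7897 genes at 20 CPM or more in CP3, whereas the lists also hold members below that level. The shares are thus only a rough guide, and the counts of the Wnt list were near them. Of 43 Wnt genes, 14 were above all other annotated nuclei in each library and 16 below. Wnt5a, a ligand of the noncanonical branch, stood at 352, 340, 307 and 252 CPM in CP3 against 67.3 ± 10.9 CPM, the highest of 15 types. Its receptor Ror1 was at 519 ± 31.6 CPM against 220 ± 29.5 CPM, and the ligand Wnt2b at 32.8 ± 6.95 CPM against 8.88 ± 0.658 CPM. Axin2 and Nkd1, feedback inhibitors that canonical Wnt signalling induces, stood at 86.3 ± 8.24 and 245 ± 15.6 CPM against 21.6 ± 1.66 and 42.9 ± 3.69 CPM, while the nuclear effectors Lef1, Tcf7, Tcf7l1 and Tcf7l2 were all below other nuclei in each library. Of 14 hedgehog genes, 0 were above other nuclei in each library and 8 were below, among them the receptor Ptch1 at 106 ± 9.86 CPM against 307 ± 26.0 CPM and the effector Gli1 at 13.4 ± 1.88 CPM against 23.1 ± 1.31 CPM. Both are targets of the pathway.

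Of the BMP genes, 20 of 28 were below other nuclei in each library and 4 were above, among them the ligands Bmp4 and Bmp7. Bmper, an extracellular modulator, was at 212 ± 34.0 CPM against 608 ± 51.9 CPM. In the FGF list 4 of 19 genes were above and 9 below. Fgf14, an intracellular partner of sodium channels, was at 492 ± 57.6 CPM against 118 ± 9.89 CPM and the receptor Fgfr4 at 204 ± 44.6 CPM against 40.2 ± 8.23 CPM, whereas Fgfr2, the receptor of bone precursors, was at 648 ± 57.2 CPM against 1136 ± 86.0 CPM. Of 18 retinoic acid genes, 4 were above and 6 below. Aldh1a1, which makes retinoic acid, was at 221 ± 20.4 CPM against 54.0 ± 4.14 CPM and Cyp26b1, which degrades it, at 57.1 ± 11.0 CPM against 7.93 ± 0.198 CPM.

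For the T-box family CP3 had the highest sum of 15 types, at 1042 to 1109 CPM against 528 to 572 CPM in other nuclei, most of it from Tbx18. Of its 16 members 4 were above, 5 below and 5 without a UMI in CP3, and Tbx2 stood at 10.2 ± 3.48 CPM against 45.0 ± 6.61 CPM. Of 34 genes of the mouse region syntenic to 22q11.2, 3 were above (Prodh, Dgcr6 and Slc7a4) and 12 below.

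Of 17 TGF-beta genes 4 were above and 7 below, with the co-receptor Tgfbr3 at 429 ± 51.2 CPM against 184 ± 9.43 CPM. Of 12 IGF genes 6 were above and 4 below, with the binding protein Igfbp2 at 324 ± 68.1 CPM against 102 ± 19.9 CPM. Of 14 Notch genes 4 were above and 5 below, with the coactivator Maml2 at 978 ± 30.9 CPM against 592 ± 22.2 CPM, and of the 5 genes of the PTH and PTHrP axis 1 was above (Pde4d, 1737 ± 173 CPM against 1389 ± 125 CPM) and 4 below. In the cell cycle lists, 23 of 36 S phase genes and 38 of 50 G2/M genes were below other nuclei in each library. By their sums CP3 was 9th of 15 types for S phase (669 CPM) and 10th for G2/M (1242 CPM). CP5 was at 623 and 1112 CPM and CP6 at 634 and 1168 CPM, so the low level was not particular to CP3. The stress and immediate early list summed to 47.2 to 71.6 CPM in CP3, below the 75.0 to 90.6 CPM of other nuclei.

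Markers of other cell types were set against all other annotated nuclei. Osteoclast markers summed to 585 to 1124 CPM in CP3, other nuclei to 1559 to 1969 CPM and osteoclasts to 11532 to 13219 CPM, and 9 of 9 were below other nuclei in each library. Connective tissue markers summed to 2135 to 3436 CPM against 2249 to 4099 CPM, with Dcn (577 ± 116 CPM against 337 ± 91.1 CPM) and Pdgfra (319 ± 43.3 CPM against 218 ± 13.1 CPM) above in each library and 8 of the 12 below. The sums in CP3 were 575 to 684 CPM for skeletal progenitor markers, 313 to 403 CPM for tendon and ligament, 157 to 277 CPM for endothelium, 81.8 to 130 CPM for mural cells, 78.9 to 129 CPM for macrophages, 61.0 to 110 CPM for marrow stroma and fat, and 142 to 208 CPM for melanocytes. Other nuclei reached 725 to 861, 957 to 1257, 254 to 283, 112 to 165, 141 to 172, 119 to 149 and 168 to 176 CPM, respectively. Neutrophil and B cell markers summed to 32.6 to 61.1 CPM and erythroid markers to 481 to 956 CPM, with Hbb-bs, a globin gene of red blood cells, at 355 ± 108 CPM in CP3 and 353 ± 113 CPM in other nuclei.

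The neuron list was an exception in size, at 475 to 620 CPM in CP3 against 217 to 298 CPM elsewhere. CP6 had the highest sum of this list, at 1781 CPM, and CP3 was second. Of the 8 neuron markers 2 were above other nuclei in each library. Most of the sum in CP3 came from Syt1, a synaptic vesicle calcium sensor, at 404 ± 49.8 CPM against 123 ± 14.1 CPM. The Schwann cell list summed to 214 to 456 CPM against 176 to 388 CPM and the meninges list to 425 to 616 CPM against 376 to 653 CPM. Of the 8 meninges markers 1 was above other nuclei in each library and 4 were below. Zic1 was at 101 ± 3.35 CPM against 41.8 ± 5.12 CPM. CT2 had the highest meninges sum, at 5337 CPM. Skeletal muscle markers followed the batch, with 344, 290, 69.7 and 47.1 CPM in CP3, and their part in any result was not tested. No marker of any of these lists was without a UMI in CP3 over the 4 libraries.

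Within CP3, clustering of the nuclei after centring each library gave 6 sub-clusters of 454, 300, 285, 208, 206 and 80 nuclei. Each held nuclei of all 4 libraries. Leading genes of these sub-clusters defined them and are given as a description. Among the genes described above they differed in Lama1, Coch and Col2a1. Lama1 stood at 1110 ± 172 CPM in sub-cluster 1, 616 ± 90.2 in sub-cluster 2 and 710 ± 248 in sub-cluster 5, but at 154 ± 32.2 CPM in sub-cluster 3 and 46.2 ± 42.7 CPM in sub-cluster 4. Tbx18 varied less, between 564 ± 118 and 823 ± 106 CPM.

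Sub-cluster 1 was led by Alk, Mapk4, Unc13c, Slc7a11 and Csmd2. Alk, a receptor tyrosine kinase, stood at 225 ± 38.2 CPM against 53.9 ± 10.3 CPM in the other CP3 nuclei. The inner ear mesenchyme and fibrocyte list had its highest sum there, at 4154 to 6060 CPM, and the chondrocyte list was low, at 3771 to 5283 CPM. Sub-cluster 2 was led by Adamtsl3, Sema3d, E2f7, Klhl14 and Ildr2. Its G2/M list summed to 1484 to 2097 CPM against a mean of 1071 CPM in the other CP3 nuclei and its S phase list to 919 to 1105 CPM against 578 CPM, the highest of the 6 for both. E2f7 is itself a cell cycle gene.

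Sub-cluster 3 was led by Musk, Slc22a3, Stxbp6, Pcp4l1 and Kcnd3, with Stxbp6 at 616 ± 72.9 CPM against 88.1 ± 16.6 CPM. Sub-cluster 4 was led by 1700111E14Rik, Synpr, Otos, Glra3 and Esyt3. Otos, which encodes the fibrocyte protein otospiralin, stood there at 386 ± 194 CPM against 22.3 ± 13.1 CPM. Col2a1 was at 2029 ± 234 CPM in this sub-cluster, Coch at 655 ± 123 CPM and the chondrocyte list at 10492 to 13894 CPM, against a mean of 5741 CPM in the other CP3 nuclei, so Col2a1 and the fibrocyte genes Coch and Otos were high in the same 208 nuclei. The summed inner ear list was not, at 3550 to 4311 CPM.

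Sub-cluster 5 was led by Gm830, Galnt2, Coch, Dgkb and Nelfe, with Coch at 597 ± 76.2 CPM. Sub-cluster 6, the smallest, was led by Pdzrn4, Gm45025, Adam12, Runx2 and Sox6, with Runx2 at 2676 ± 281 CPM against 544 ± 144 CPM in the other CP3 nuclei. Its median nucleus held 6809 UMIs, against 3389 to 4270 UMIs in the other sub-clusters. No doublet caller was run, and whether its nuclei include doublets was not tested.

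**Figure D3:**
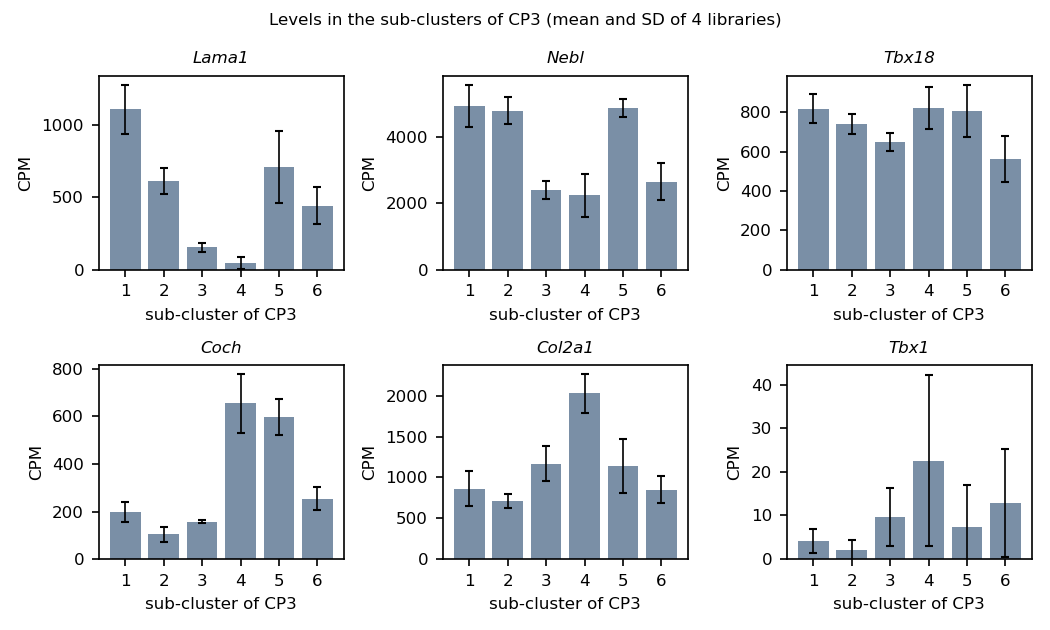
Level of 6 genes in the 6 sub-clusters of CP3, in CPM, as bars for the mean of 4 libraries with the SD between libraries. Lama1 ranged from 1110 CPM in sub-cluster 1 down to 46.2 CPM in sub-cluster 4, where Coch (655 CPM) and Col2a1 (2029 CPM) were highest, and Tbx18 stayed between 564 and 823 CPM.

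The first question between genotypes was whether Tbx1+/- mice had fewer CP3 nuclei. CP3 made up 5.68% of the annotated nuclei in WT batch 1 (exact 95% interval 5.24 to 6.16), 3.42% in Tbx1+/- batch 1 (3.05 to 3.83), 6.24% in WT batch 2 (5.64 to 6.88) and 4.60% in Tbx1+/- batch 2 (4.10 to 5.14). Both Tbx1+/- libraries lay below both WT libraries, and the counting intervals of the 2 genotypes did not overlap within either batch. These intervals cover counting error only and leave out the spread between pools. Over the libraries the log2 change was -0.57 ± 0.22 (SE). The quasi-likelihood test of edgeR gave an adjusted p of 0.421 over 15 types (0.0689 unadjusted), above the false discovery rate of 0.1 set for shares. An exact permutation test of 2 pools against 2, two-sided, cannot go below p = 0.333.

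As a share of the CPs alone, CP3 came to 12.9% (11.9 to 13.9), 9.45% (8.46 to 10.5), 15.4% (14.0 to 16.9) and 11.7% (10.5 to 13.1). Again both Tbx1+/- libraries were below both WT libraries. The log2 change was -0.41 ± 0.19, with an edgeR quasi-likelihood adjusted p of 0.277 over the 6 CPs (0.0462 unadjusted). The other 5 CPs had log2 changes between -0.06 and 0.18 in that test, each with an adjusted p of 0.969. With the batch as a block, CP3 was at -0.42 ± 0.04 with an adjusted p of 0.0353 in edgeR, below the threshold of 0.1. CP4 also passed in the blocked test, as a higher share of the CPs in Tbx1+/- libraries (0.19 ± 0.04, adjusted p = 0.0752, edgeR), while the remaining 4 CPs did not. That fit had nearly as many terms as libraries. Its small SE and p-values therefore rest little on the spread between pools. Shares of the CPs depend on each other, a share of nuclei does not tell fewer CP3 cells from more of the other types, and the recovery of nuclei from pulverized bone was not measured.

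**Figure D4:**
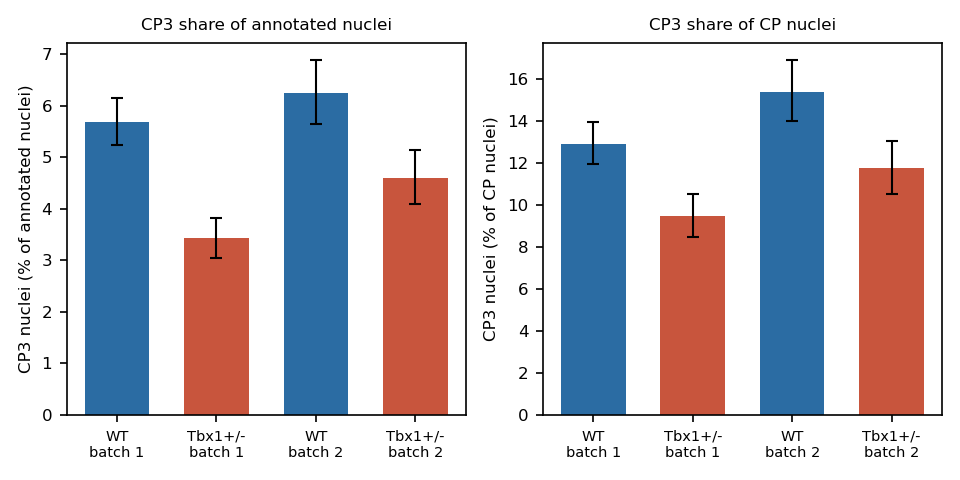
CP3 nuclei as a percentage of all annotated nuclei (left) and of CP nuclei (right) in each library, with exact 95% binomial intervals that cover counting error only. In each batch the Tbx1+/- library was below the WT library, 3.42% against 5.68% and 4.60% against 6.24% of annotated nuclei.

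Tbx1 was low in CP3. It stood at 7.86, 4.48, 13.8 and 6.24 CPM, from 18, 6, 24 and 9 UMIs, a mean of 8.10 ± 4.06 CPM that placed CP3 13th of 15 types. Osteoclasts ranged from 6.99 to 15.5 CPM, so the level of Tbx1 in CP3 was no higher than in cells read as background, and the difference between genotypes below is one within that background range. All other CPs held more, from 44.5 ± 10.9 CPM in CP2 to 76.3 ± 20.8 CPM in CP5 and 81.8 ± 20.2 CPM in CP6, with no overlap with CP3 in any library. After thinning to 1000 UMIs a Tbx1 UMI was found in 0.604% ± 0.0820 of CP3 nuclei, 1.00% ± 0.392 of osteoclasts and 4.67% ± 1.68 of CP4 nuclei. The thinned shares in CP3 rested on 2 or 3 nuclei per library, at 0.529%, 0.671%, 0.536% and 0.678%, and were higher in the Tbx1+/- libraries, within wide counting intervals. Before thinning the means were 2.63%, 5.81% and 20.5%, and the CP3 libraries were at 3.00%, 1.68%, 3.49% and 2.37%, lower in the Tbx1+/- library of each batch. In CPM, too, both Tbx1+/- libraries were below both WT libraries. The same held in osteoclasts, at 11.7, 6.99, 15.5 and 10.7 CPM, and the part of free RNA in the difference in CP3 was not tested. The log2 change in CP3 was -0.98 ± 0.49 with an edgeR quasi-likelihood adjusted p of 0.999 (0.0780 unadjusted), not past the threshold. Among the sub-clusters, Tbx1 was highest in sub-cluster 4, at 22.6 ± 19.7 CPM, and lowest in sub-cluster 2, at 2.01 ± 2.35 CPM.

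Between genotypes within CP3 no gene passed the test of edgeR at an adjusted p under 0.05 and a change above 1.5-fold, which is 0% of the 12249 genes tested. Without adjustment 201 genes (1.64%) had p under 0.05. DESeq2 likewise made 0 calls, and 24 genes had p under 0.05 in it. In simulated counts of this comparison, 43.5% of genes changed 2-fold and 93.0% of genes changed 4-fold were recovered. The simulation gave every gene the same dispersion, had no batch difference and changed only genes above a minimum count. These shares may thus not hold for the measured counts, in which Tmem229a, with a log2 change of -2.16 ± 0.56 (SE), was not called. The batch as a block gave 1 call, Bpifa1, an airway secretory gene named after its values were seen. It stood at 185, 61.9, 78.9 and 4.85 CPM in CP3 (log2 change -2.16, adjusted p = 0.00242, edgeR). The other CPs held nearly the same levels of it, 174, 55.3, 59.6 and 3.50 CPM, so the difference was not one of CP3 alone, and the part of free RNA in it was not tested.

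Ranked by p among genes with the same direction in either batch, the first 10 were Nrg3, Prune2, Spock1, Themis, Dscam, Tmem229a, Frmd5, Adprm, Lrfn5 and Pik3ap1. None was called, each with an adjusted p of 0.999 by the quasi-likelihood test of edgeR. Without WT replicate 1, Nrg3 (adjusted p = 0.0104, edgeR), Themis (0.00842) and Lrfn5 (0.0133) were among the 41 genes called, and without any other single library none of the 10 was. Nrg3, a ligand of the ERBB4 receptor, was at 146, 101, 175 and 76.2 CPM (log2 change -0.86 ± 0.18, SE). Themis, a leading gene of CP3, was at 86.5, 50.7, 122 and 61.0 CPM (-0.89 ± 0.22), and Spock1, a secreted proteoglycan, at 37.6, 19.4, 36.9 and 17.3 CPM (-1.02 ± 0.25). In the other direction, Dscam, a cell adhesion molecule, was at 21.4, 50.7, 28.2 and 45.0 CPM (0.95 ± 0.24) and Prune2 at 12.2, 27.6, 9.22 and 26.3 CPM (1.30 ± 0.31). The genotypes did not overlap for any of the 10 genes, which their choice by p favours.

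**Figure D5:**
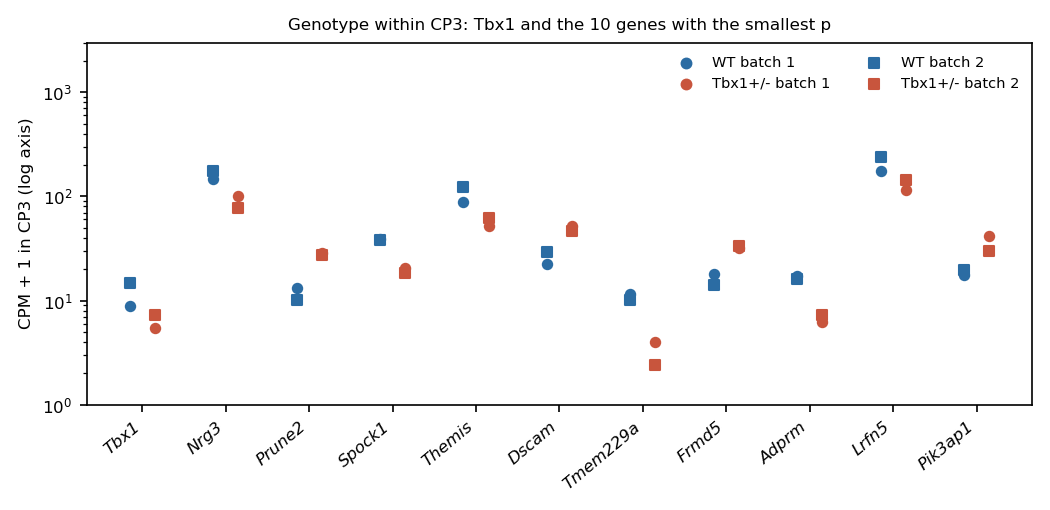
Level in CP3, as CPM + 1 on a log axis, of Tbx1 and of the 10 genes ranked first by p between genotypes with 1 direction in both batches, for each of the 4 libraries. For Tbx1 the WT libraries were at 7.86 and 13.8 CPM and the Tbx1+/- libraries at 4.48 and 6.24 CPM; no gene shown passed the adjusted test.

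Lama1, Nebl and Cacna1e, the first leading genes described above, and the main marker genes differed between genotypes by less than their SE, unlike Themis. The log2 changes were 0.00 ± 0.19 for Lama1, -0.03 ± 0.16 for Nebl and 0.13 ± 0.14 for Cacna1e. They were -0.01 ± 0.29 for Sox9 and -0.01 ± 0.21 for Col2a1, and both turn sign under other settings. For Tbx18 it was -0.04 ± 0.14, for Coch -0.13 ± 0.20 and for Gjb2 -0.31 ± 0.32. None of these genes passed the test, and the WT and Tbx1+/- libraries overlapped for each of them.

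For the gene lists, medians and counts are given beside those of all genes tested, whose median log2 change was -0.01. Over all genes, both Tbx1+/- libraries were above both WT libraries for 12.6% and below for 14.1%. No member of any list was called. Of the 19 tested chondrocyte markers 1 was above and 2 were below, with a median of 0.03, and of the 15 osteoblast markers 0 were separated, with a median of 0.12. Of the 8 tested inner ear mesenchyme and fibrocyte genes 1 was below (Gjb6) and the median was -0.15. In the G2/M list 10 of 39 genes were above and 2 below, with a median of 0.11, and in the S phase list 1 of 27 was above and 5 were below, with a median of -0.09. Of 26 tested genes in the mouse region syntenic to 22q11.2, apart from Tbx1, 7 were below and 1 above, with a median of -0.06. Wnt genes had 3 of 36 above, among them Lef1 at 165, 211, 145 and 206 CPM, and 3 below. BMP genes had 6 of 24 above and 5 below, FGF genes 5 of 16 above and 1 below, and retinoic acid genes 4 of 13 above and 0 below.

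A last comparison asked whether the genotype difference in CP3 differed from that in the other 5 CPs, with each library as its own control. No gene of 16803 passed the interaction test of edgeR (0%), and 733 genes had p under 0.05 without adjustment. In DESeq2 there were 0 calls and 95 such genes. In counts simulated in the same simple way as above, this test recovered 1.5% of genes changed 2-fold and 88.5% of those changed 4-fold. The 5 genes with the smallest p were Spock1 (log2 difference -1.16 ± 0.21), Kcnq3 (0.91 ± 0.18), Dscam (1.07 ± 0.21), Cntnap2 (0.67 ± 0.14) and Nrg3 (-0.66 ± 0.14), with adjusted p of 0.244 to 0.400 by the quasi-likelihood test of edgeR.

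With the batch as a block, which lets CP3 differ from the other CPs by batch as well, 10 genes passed, 8 with a higher and 2 with a lower difference in CP3. They were Pdzrn4, Kcnq3, Cntnap2, Dscam, Adam23, Nrxn3, Prune2 and Frmd5 in the first direction and Spock1 and Nrg3 in the second. The blocked fit had nearly as many terms as sums. Its p-values therefore rest on a spread shared over genes and hardly on that of each gene between pools. Kcnq3 encodes a potassium channel, Cntnap2 and Nrxn3 adhesion proteins of the neurexin family. Spock1 was at 37.6, 19.4, 36.9 and 17.3 CPM in CP3 and at 153, 176, 159 and 166 CPM in the other CPs (log2 difference -1.15 ± 0.23, adjusted p = 0.00163, edgeR). Dscam was at 41.2, 42.1, 55.8 and 46.8 CPM in the other CPs, against 21.4, 50.7, 28.2 and 45.0 CPM in CP3 (1.07 ± 0.22, adjusted p = 0.00250, edgeR). For Pdzrn4, a RING finger gene, CP3 was at 246, 449, 137 and 188 CPM and the other CPs at 1999, 2408, 2127 and 1692 CPM (0.67 ± 0.09, adjusted p = 4.89e-11, edgeR). Some of these differences depended on a few nuclei, a library or the reference type. In the fit without the block and without the 8% of nuclei richest in UMIs, the log2 difference of Kcnq3 came to 0.34 and Cntnap2 to 0.32. Kcnq3 was at 0.56 without Tbx1+/- replicate 2 and Cntnap2 at 0.45 without Tbx1+/- replicate 1. Against CP4 alone, Nrg3 was at -0.06, Spock1 at -0.76, Dscam at 1.65 and Kcnq3 at 1.28. Pdzrn4 was also the leading gene of sub-cluster 6, at 1208 ± 811 CPM, and the part of that sub-cluster in the difference was not tested. Nrg3 stood at 35.3, 36.0, 40.5 and 30.2 CPM in the other CPs, below CP3 in every library.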

How the data were processed

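The deposited count matrices hold raw UMIs for each gene and barcode, which the authors obtained with Cell Ranger 7.0.0 on mm10; ambient RNA was not removed from them. Cell types were the authors' deposited labels. The members and gene lists were chosen with earlier results of these data known. UMIs were summed per library and type. Genotypes were compared with edgeR 4.0.16 (filterByExpr, TMM, quasi-likelihood test; SE is the log2 change divided by the root of F) and DESeq2 1.42.0 in R 4.3.3, with Benjamini-Hochberg adjustment; the gene tests were tested on simulated data. Shares of nuclei had the same edgeR test, offset by the library's nuclei. Leading genes were the 20 with the largest of the lowest log2(CPM + 1) differences over 4 libraries, from 20 CPM in CP3. For the gene lists the rule was to name up to 6 of the most abundant members. The text names only some of these, and other members named were chosen after their values were seen. Single genes named for a list need not go the way of most of its members. Sub-clusters came from scanpy 1.11.5 (2000 variable genes, 20 components, 15 neighbours, Leiden resolution 0.5). Coordinates are from GENCODE vM21. The study's methods give 2 batches of mice, with 1 library per genotype in each, and same-numbered libraries deviated together in CP3 (r = 0.28 across 12249 genes). p-values measure the spread between pools, which the gene tests estimate partly over all genes. The blocked fits leave little of that spread to measure. Intervals cover counting error only. The paraflocculus libraries were not used here. Some genes that the rules would name are not reported here.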

Additional observations from a re-analysis of the deposited data

How the results depend on the processing

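The CP3 share of annotated nuclei was lower in Tbx1+/- libraries and short of the threshold under each alternative run. Without each replicate in turn its log2 change ranged from -0.80 to -0.37, and as a share of CPs from -0.57 to -0.26. The replicate block carried the share of CPs past the threshold (-0.42) and moved the genes called between genotypes in CP3 from 0 to 1 and those differing from the other CPs from 0 to 10. In the same fit CP4 passed as well, as a higher share of CPs (0.19), and beside these the block changed no other call. The blocked fits had nearly as many terms as values, so these calls rest little on the spread between pools. Without a filter on low counts there were 4 (Bpifa1, Ttr and Kcnq3 among them) and 8, and with CP4 in place of the other CPs 3 (Dscam, Epha3 and Cntnap2). Leaving out one replicate gave 0 to 41 calls in CP3 (41 without WT replicate 1, 9 without WT replicate 2, 0 without either Tbx1+/- replicate) and 5 to 20 for the difference (15 without WT replicate 1, 15 without Tbx1+/- replicate 1, 5 without WT replicate 2, 20 without Tbx1+/- replicate 2), the lone library being assumed to vary like the others. The log2 change of Tbx1 in CP3 lay between -1.59 (nuclei with at least 2000 detected genes) and -0.53 (without WT replicate 2) and was called under no alternative. That of Sox9 reversed with RLE factors (0.0028), DESeq2 (0.013), the replicate block (0.021) and at least 2000 detected genes (0.21), and ranged from -0.32 to 0.47 over left-out replicates. That of Col2a1 reversed with RLE factors (0.0031), DESeq2 (0.0034), the replicate block (0.020), at least 2000 detected genes (0.018) and without the 8% of nuclei richest in UMIs (0.038), and ranged from -0.27 to 0.35. The cause was not tested. Thinning to 2000 UMIs gave shares of CP3 nuclei of 6.62% for Sox9, 79.4% for Col2a1 and 1.6% for Tbx1, higher by construction. At resolution 1.0 there were 11 sub-clusters. In simulated counts the test against the other CPs recovered 1.5% of 2-fold changes, so its lack of calls says little about changes of that size.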
